A study of Mus musculus with 10 samples.

Results

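The 9 genes Ptprc, Csf1r, Cd68, C1qa, C1qb, C1qc, Cx3cr1, Tyrobp and Ctss mark microglia and other leukocytes. They were chosen by name, with earlier results of these data known. Of the 9, 8 were among the 14106 genes of the deposited table, and Tyrobp was not analysed here. The 10 libraries hold RNA of brain endothelial cells (BECs), with 5 of APP/PS1 mice and 5 of controls whose genotype is given as WT. All mice were female, 1 year old and of the same C3H/BL6 background, and APP/PS1 mice carry the APPswe and PSEN1dE9 transgenes and deposit Aβ in the brain. The cells came from the cortex, after removal of the meninges and myelin, and were enriched with CD31 microbeads. The paper describes them as CD31+CD45- cells and reports that their purity for both markers was high by flow cytometry. Its methods describe no separate step that removes CD45+ cells, although a supplementary legend calls the cells sorted. Leukocytes were not the target of the isolation. The number of mice behind each library is not given in the sources used here, so the spread between libraries may in part be technical. Libraries with the same replicate number form a pair of 1 control and 1 APP/PS1 library, and the 5 pairs were a term in the model. Each p value of that model measures the spread of the 5 pair differences. The authors' batch correction had set the pair means nearly equal, so each SD of a group leaves out most of the spread between pairs.

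Microglia are the resident macrophages of the brain. They depend on signaling through the receptor encoded by Csf1r, sense neuronal fractalkine through the receptor encoded by Cx3cr1, and produce most of the C1q of the brain, the complex that starts the classical complement cascade. Around amyloid plaques they are known to take on an activated state with more lysosomal and phagocytic gene expression. Endothelial cells do not usually express these genes strongly, so in a BEC library they are commonly read as a measure of the leukocytes that came along.

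The 8 genes were weakly expressed in the BEC libraries, and no difference between APP/PS1 and control mice passed the test for any of them. With the pairs in the model, limma called 0 of the 8 genes at an adjusted p under 0.05, and 0.0% of all 14106 genes. The paper, which also used limma, does report differentially expressed genes at that threshold, with a fold change cutoff. Its methods name no term for pairs. In the model with pairs, 0 of the 8 had an unadjusted p under 0.05, compared with 8.03% of all genes (2.13% higher and 5.91% lower in APP/PS1). The mean was higher in APP/PS1 BECs for 6 of the 8 genes (48.2% of all genes) and lower for 2, Ptprc and Csf1r (51.8% of all genes), although with library size alone as scaling Cx3cr1 and Ctss were also lower, and by limma-voom Cx3cr1, Ctss and C1qc were. Without replicate 1 the mean was higher for 1 of the 8, Cd68, and lower for 7, and the median log2 fold change of the 8 was −0.25. The median log2 fold change of the 8 was 0.04, compared with −0.00377 over all genes. A shared direction over all 5 pairs was found for 0 of the 8 genes, compared with 7.99% of all genes (2.99% higher and 5.0% lower), and the 5 APP/PS1 libraries overlapped the 5 control libraries in every one of the 8, whereas 7.88% of all genes did not overlap. The adjusted p values by limma lay between 0.726 and 0.994. The sign differed between pairs, with 7 of the 8 higher in APP/PS1 in pair 1 and 8 of 8 lower in pair 5.

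The genes lie at several places of GRCm38, the assembly also called mm10. The 3 C1q genes sit next to each other on the minus strand of chromosome 4, in the order C1qb (136880129 to 136886187), C1qc (136889804 to 136893065) and C1qa (136895917 to 136898803). Ptprc is on chromosome 1 (138062861 to 138175708), Ctss on chromosome 3 (95526786 to 95556403), Cx3cr1 on chromosome 9 (119901616 to 120069879) and Cd68 on chromosome 11 (69664213 to 69666153). All are protein-coding. Exons of Csf1r overlap those of Hmgxb3, and exons of Cx3cr1 overlap those of Gm33858, each on the opposite strand. Whether the counting used strand is not given in the sources used here, so the values of Csf1r and Cx3cr1 are less certain in that respect.

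Promoters of these genes are shown because macrophage genes are widely known to be driven by PU.1, a transcription factor that binds sites built around the letters GAGGAA. The RefSeq promoter table of GRCm38.p6 held 6 of the 9 genes. The 250 bases before the annotated start are given for 3 genes whose GENCODE starts do not reach into them, each 5′ to 3′ on the strand of the gene, and the capitals mark GAGGAA. C1qb is at chr4:136886201-136886450 (minus strand), Ctss at chr3:95526536-95526785 (plus strand) and Cd68 at chr11:69666171-69666420 (minus strand).
C1qb: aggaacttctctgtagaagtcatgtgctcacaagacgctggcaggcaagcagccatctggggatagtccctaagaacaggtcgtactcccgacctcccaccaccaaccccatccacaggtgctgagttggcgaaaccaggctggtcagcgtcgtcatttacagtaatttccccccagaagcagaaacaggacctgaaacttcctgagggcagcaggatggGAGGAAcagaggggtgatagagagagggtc
Ctss: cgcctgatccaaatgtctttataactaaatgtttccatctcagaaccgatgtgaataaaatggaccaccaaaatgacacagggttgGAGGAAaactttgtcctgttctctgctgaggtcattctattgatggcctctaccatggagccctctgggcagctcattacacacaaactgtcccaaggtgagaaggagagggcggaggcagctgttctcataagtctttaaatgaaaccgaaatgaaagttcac
Cd68: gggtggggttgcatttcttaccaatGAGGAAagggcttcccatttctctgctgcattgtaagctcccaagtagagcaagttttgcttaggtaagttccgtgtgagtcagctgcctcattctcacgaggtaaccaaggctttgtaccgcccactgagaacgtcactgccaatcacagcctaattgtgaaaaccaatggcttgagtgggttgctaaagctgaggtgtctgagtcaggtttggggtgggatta
The motif begins 30 bases before the start in C1qb, 164 in Ctss and 225 in Cd68. Searched on both strands, GAGGAA or its reverse complement TTCCTC was in 5 of the 6 genes with a promoter, in at least 1 of their annotated starts, and in 23.3% of all 32851 promoters of the table cut to the same 250 bases. The match is a description of the letters and not evidence of binding.

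The level of each gene was compared per kilobase of exon, in CPM (a library's counts of a gene scaled to a common total) of the control libraries. Cd68, which encodes a lysosomal glycoprotein of macrophages, was the highest at 3.71 ± 0.43 CPM per kb (SD, n = 5). Ctss, the lysosomal protease cathepsin S, followed at 1.55 ± 0.48, Csf1r, the receptor for colony-stimulating factor 1, at 1.24 ± 0.27 and C1qa at 1.15 ± 0.35. C1qb was at 0.706 ± 0.166, C1qc at 0.422 ± 0.124, Cx3cr1 at 0.319 ± 0.076 and Ptprc, which encodes the pan-leukocyte phosphatase CD45, at 0.0957 ± 0.0468. The ranges over the 5 control libraries did not overlap between Cd68 and Ctss, between C1qb and C1qc, or between Cx3cr1 and Ptprc. The other neighbors in this order overlapped and are not told apart. The low place of Ptprc rests in part on its exon length of 18313 bases in the annotation. With the longest coding transcript of 5074 bases its level was 0.346, and it changed places with Cx3cr1, which it then overlapped. With the longest coding transcript of 1203 bases in place of 1931 bases of exon, C1qc was at 0.677 (range 0.358 to 0.871), and it then overlapped C1qb.

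These are small amounts of RNA beside that of the endothelium. The median of the 8 genes was 0.926 CPM per kb, and that of 15 endothelial genes, among them Cldn5 and Pecam1, was 349, which is 377 times as much. On the log2 CPM scale, not corrected for length, all 8 genes lay below the median level of all genes, with 5.69% of all genes below C1qb, the lowest, and 30.7% below Csf1r, the highest. The lowest and highest levels of the endothelial genes were 87.7 for Emcn and 2021 for Slc2a1, so every gene of that list lay above every gene of the microglia and leukocyte list. The sum of the 8 genes ranged from 16.1 to 24.6 CPM over the control libraries (median 19.0) and from 15.6 to 23.8 over the APP/PS1 libraries (median 20.5), so the ranges of the groups overlapped.

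**Figure D1:**
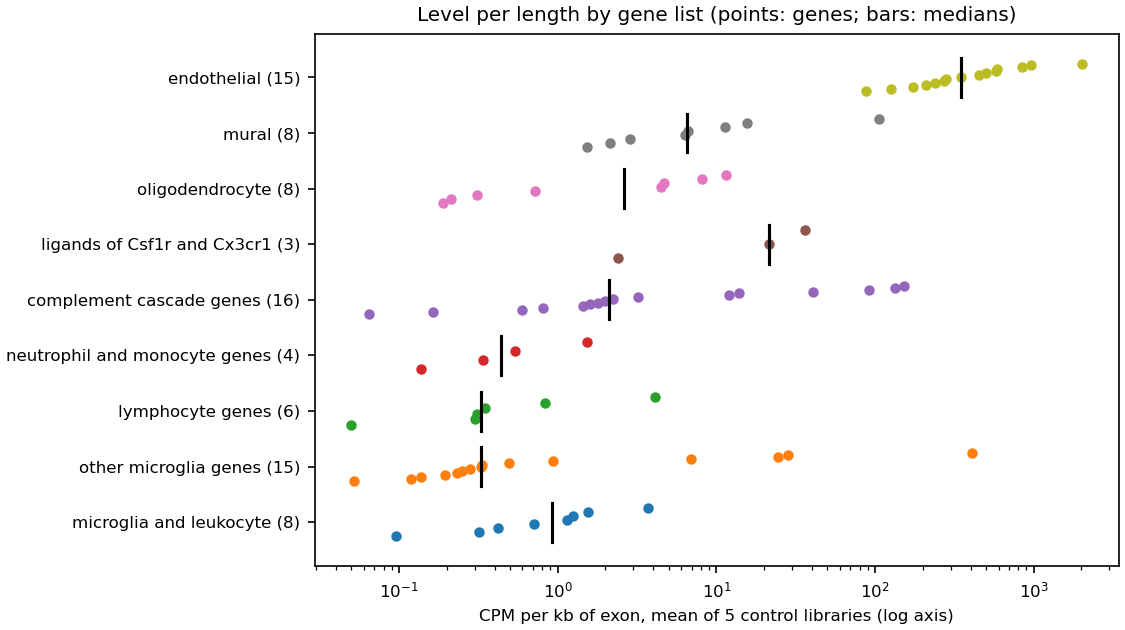
Each point is 1 gene at its mean level over 5 control libraries, in CPM per kb of exon on a log axis, and the bars mark the median of each list, with the number of genes in parentheses. The 8 microglia and leukocyte genes lie between 0.0957 and 3.71, and all 15 endothelial genes lie above them, from 87.7 to 2021.

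Many other genes that define microglia were not among the analyzed rows. Of a list of 28 further microglia genes, 15 were tested, and the 13 that were not include Aif1, Itgam, Itgb2, Fcer1g and Spi1. The table holds no genes that the authors' filter on low counts removed. Among the 15, P2ry12, the purinergic receptor of resting microglia, averaged −0.21 ± 0.31 log2 CPM (SD, n = 5) over the control and −0.54 ± 0.37 (SD, n = 5) over the APP/PS1 libraries, and Tmem119, a membrane protein that marks microglia, −0.41 ± 0.59 and −0.74 ± 0.61. Of the 15, 0 were called, with 4 higher and 11 lower in APP/PS1 and a median log2 fold change of −0.05. Ly6e and Mertk were the highest of the list at 10.60 and 6.93 log2 CPM in control libraries, and neither gene is restricted to microglia.

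The C1q genes, taken first, had no common direction over the pairs. The C1q complex is built from the products of C1qa, C1qb and C1qc. C1qa in control replicates 1 to 5 was at −0.47, 0.51, 0.45, −0.02 and 0.71 log2 CPM. In APP/PS1 replicates 1 to 5 it was at 1.02, 0.34, 0.39, 0.78 and 0.05. Control replicate 1 was the lowest of the 10 libraries and APP/PS1 replicate 1 the highest. The batch correction had set the pair means nearly equal, so both extremes fall in the pair with the largest difference. The log2 fold change was 0.28 (95% interval −0.51 to 1.07, adjusted p = 0.878 by limma), higher in 2 of 5 pairs.
C1qb was at −0.56, −0.62, 0.02, −0.54 and −0.02 log2 CPM in control replicates 1 to 5, and at 0.04, 0.02, −0.65, −0.05 and −0.64 in APP/PS1 replicates 1 to 5. Its libraries fell into a higher and a lower set within each genotype, with pairs 1, 2 and 4 higher in APP/PS1 and pairs 3 and 5 lower. With nearly equal pair means, the sets of one genotype mirror those of the other. Its log2 fold change was 0.09 (95% interval −0.53 to 0.71, adjusted p = 0.956 by limma).
C1qc was at −1.11, −0.33, 0.00, −0.15 and 0.11 log2 CPM in control replicates 1 to 5, and at 0.38, −0.14, −0.46, −0.31 and −0.70 in APP/PS1 replicates 1 to 5. As for C1qa, the lowest and the highest library were both of pair 1, the pair with the largest difference. Its log2 fold change was 0.04 (95% interval −0.77 to 0.86, adjusted p = 0.982 by limma). The 3 neighboring genes had the same sign in 3 of the 5 pairs, higher in pair 1 and lower in pairs 3 and 5.

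Neither receptor gene passed the test. Csf1r was at 2.59, 2.51, 3.23, 2.76 and 3.02 log2 CPM in control replicates 1 to 5, and at 2.92, 2.96, 2.16, 2.78 and 2.48 in APP/PS1 replicates 1 to 5. Replicate 3 held both the highest control and the lowest APP/PS1 library, as the pair with the largest difference does when pair means are nearly equal. The log2 fold change was −0.16 (95% interval −0.76 to 0.43, adjusted p = 0.905 by limma), and without replicate 3 it was 0.07.
Cx3cr1 was at −0.03, 0.43, 0.90, 0.55 and 0.77 log2 CPM in control replicates 1 to 5, and at 1.02, 0.68, 0.14, 0.57 and 0.30 in APP/PS1 replicates 1 to 5. The group means were nearly equal, at 0.52 ± 0.36 and 0.54 ± 0.34 (SD, n = 5 each), and its log2 fold change of 0.01 had a 95% interval of −0.63 to 0.66 (adjusted p = 0.994 by limma). With library size alone as scaling the sign of Cx3cr1 turned, to −0.02.

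All 3 known ligands of the receptors were measured, and none of them passed the test. Cx3cl1, which encodes fractalkine, and Csf1, which encodes colony-stimulating factor 1, were at much higher levels per length than the receptors, 36.0 and 21.3 CPM per kb in control libraries. Cx3cl1 had a log2 fold change of 0.11 (95% interval −0.09 to 0.32) and was higher in 4 of 5 pairs, and Csf1 had one of −0.07 (95% interval −0.34 to 0.20). Il34, the second ligand of the Csf1r receptor, was at 2.39 CPM per kb. Its values in control replicates 1 to 5 were 2.63, 1.79, 2.15, 2.54 and 1.89 log2 CPM, and in APP/PS1 replicates 1 to 5 they were 0.61, 1.82, 1.52, 0.87 and 1.76. Il34 was lower in 4 of 5 pairs, by more than 1 log2 unit in pairs 1 and 4 and by −0.63 in pair 3, with a mean of −0.89 (standard error 0.34, unadjusted p = 0.0429, adjusted p = 0.604 by limma). Pairs 1 and 4 also held the lowest medians of the 8 mural cell genes, −1.50 and −1.44, beside 0.02 in pair 5. The summed level of those 8 genes ranged from 518 to 870 CPM in control and from 262 to 510 CPM in APP/PS1 libraries, with no overlap. Gene by gene, Acta2 and Myh11 did not overlap between the groups (7.88% of all genes did not), and the other mural genes, Rgs5 among them, did. All 8 mural genes had a lower mean in APP/PS1 (51.8% of all genes), and 0 were called. At an unadjusted p under 0.05 by limma 7 of them were lower (5.91% of all genes). The medians of 8 oligodendrocyte genes were also lowest in pairs 1 and 4, at −2.70, 0.65, −1.34, −1.98 and −1.55 in pairs 1 to 5. All 8 had a lower mean in APP/PS1. The medians of 8 astrocyte genes were −2.60, 0.45, −1.86, −1.21 and −0.20 in pairs 1 to 5, and those of 4 neuron genes −1.51, −0.17, −0.51, −0.36 and −0.69. The summed levels of the astrocyte genes (171 to 209 CPM in control and 171 to 212 in APP/PS1 libraries) and of the neuron genes (93.7 to 117 and 97.8 to 122 CPM) overlapped between the groups. Each sum rests largely on the highest gene of its list, with control means of 8.88 (Rgs5), 7.09 (Gja1) and 6.65 log2 CPM (Stmn2). Counted by gene, the mean in APP/PS1 was lower for 7 of the 8 astrocyte genes and higher for Gja1. It was lower for 3 of the 4 neuron genes, and Snap25 was lower in all 5 pairs. The part of these cell types in the Il34 values was not tested.

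Of the 8 genes, Cd68 varied least between pairs, with an SD of the 5 differences of 0.337. It was at 2.24, 2.14, 1.98, 2.40 and 2.36 log2 CPM in control replicates 1 to 5, and at 2.51, 2.57, 2.71, 2.29 and 2.35 in APP/PS1 replicates 1 to 5. The APP/PS1 libraries of replicates 1, 2 and 3 lay above all control libraries, and those of replicates 4 and 5 did not. The log2 fold change of 0.26 (95% interval −0.06 to 0.58) had the smallest p of the 8 genes, 0.0944 before and 0.726 after adjustment by limma. The exact two-sided sign-flip test over the 5 pairs gave p = 0.25 for Cd68, where 5 pairs cannot give less than 0.0625.
Ctss was at 0.36, 1.18, 1.10, 0.97 and 1.62 log2 CPM in control replicates 1 to 5, and at 1.59, 1.04, 1.13, 1.23 and 0.39 in APP/PS1 replicates 1 to 5. Pairs 1 and 5 were mirror images, at 1.23 and −1.23, while the other 3 pairs lay between −0.13 and 0.26. The log2 fold change of Ctss was 0.03 (95% interval −0.78 to 0.85, adjusted p = 0.986 by limma).
The wider lysosomal list, with cathepsins, cystatins and lysosomal membrane proteins, had a median of 30.4 CPM per kb in control libraries, compared with 0.926 for the 8 genes. It had 0 of 19 genes called and 1 with an unadjusted p under 0.05 by limma (8.03% of all genes). That gene was Ctsc, which encodes cathepsin C. Ctsc was lower in all 5 pairs (5.0% of all genes). Its mean was 7.88 ± 0.06 log2 CPM (SD, n = 5) for the controls and 7.63 ± 0.06 (SD, n = 5) for APP/PS1, which differ by −0.25 ± 0.0583 (standard error) with an adjusted p = 0.511 by limma. The median of the list was −0.04, with 3 genes higher and 16 lower.

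Ptprc, the gene of CD45, carried the widest spread of the 8. It was at 0.62, 0.05, 1.01, 0.24 and 1.66 log2 CPM in control replicates 1 to 5. In APP/PS1 replicates 1 to 5 it was at 0.52, 0.86, 0.10, 0.72 and −1.51. The library of APP/PS1 replicate 5 was far below all others, and that of control replicate 5 was the highest of all 10. Both libraries of a pair mirror each other after the batch correction, so these extremes are not separate observations. The log2 fold change was −0.58 (95% interval −2.04 to 0.88, adjusted p = 0.862 by limma), and without replicate 5 it was 0.07.
The difference of Ptprc in pair 5 was −3.17 log2 units. Of 6 lymphocyte genes tested, 5 were also lower in pair 5, with a median difference of −3.67 in that pair. The exception was Cd3e, of T cells, at 0.01. In pairs 1 to 4 the lymphocyte medians were 1.20, −0.37, 0.24 and −0.26. Each was opposite in sign to Ptprc, at −0.10, 0.80, −0.91 and 0.48. The summed level of those 6 genes was between 4.21 and 36.2 CPM in control libraries and between 1.82 and 7.22 in APP/PS1 libraries. Syk, a kinase that acts downstream of immune receptors in both B cells and macrophages, differed by −3.14 in pair 5, and Ikzf1, a lymphoid transcription factor also found in microglia, by −2.77. The part of lymphocytes in the Ptprc value was not tested.

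**Figure D2:**
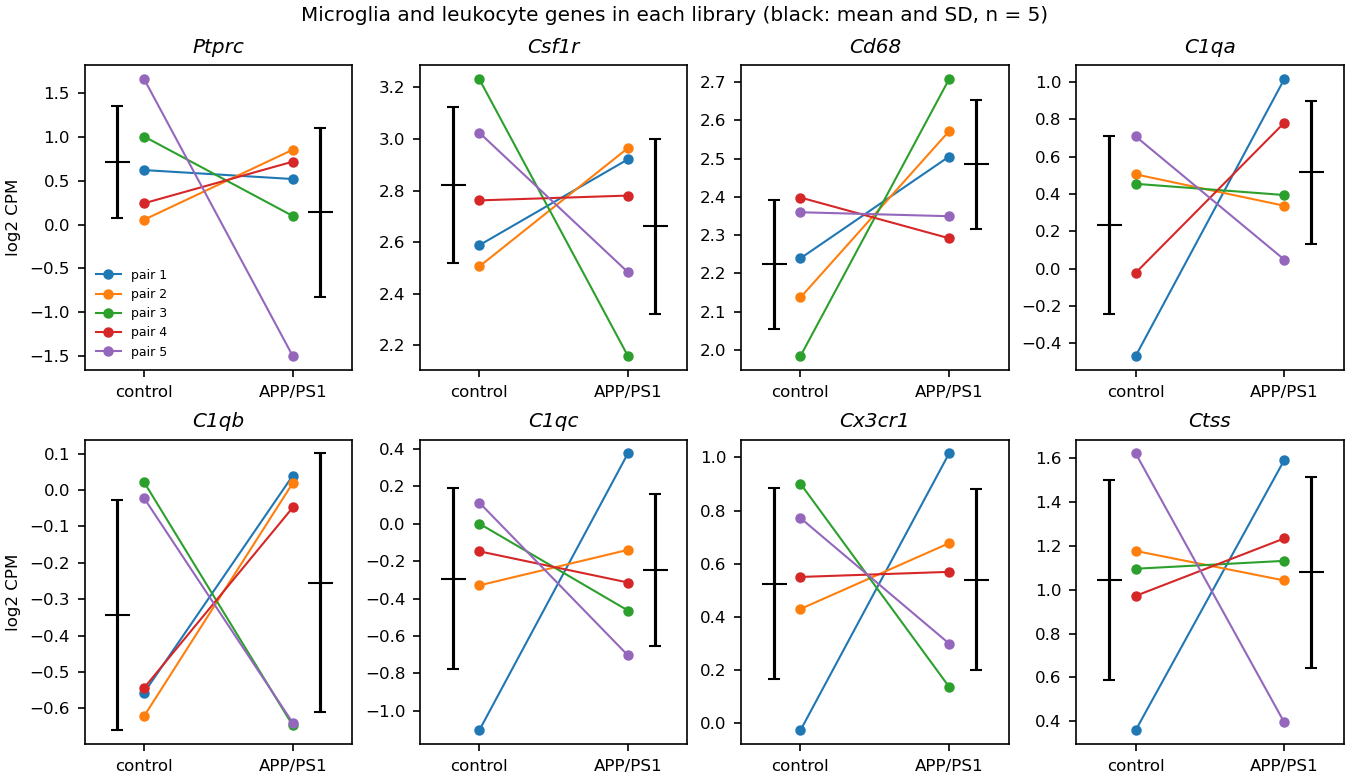
The 8 genes in the 10 libraries, in log2 CPM (each panel has its own scale), with lines joining the control and APP/PS1 library of a pair and black bars for the mean and SD of 5 libraries. Every panel holds both rising and falling lines, and the groups overlap in all 8.

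The sign of the difference varied with the pair. In pair 1, 7 of the 8 were higher in the APP/PS1 library (49.1% of all genes) with a median difference of 0.82, and Ptprc was the exception (50.8% of all genes were lower). In pair 5, 8 of the 8 were lower (52.2% of all genes, and 47.8% were higher) with a median difference of −0.64. In pair 2, 6 were higher and 2 lower (50.3% and 49.7% of all genes), in pair 3, 2 were higher and 6 lower (48.4% and 50.9%), and in pair 4, 6 were higher and 2 lower (48.9% and 51.1%), with medians of 0.34, −0.57 and 0.14. The median SD of the 5 pair differences was 0.777 for these genes, compared with 0.173 for all genes and 0.312 for the 3530 genes between the lowest and highest of their levels, and 8 of 8 lay above the latter. Each pair compares 1 library with 1 library, so a single pair has no replicate check.
The other 15 microglia genes had a median difference of 0.53 in pair 1 and of −0.59 in pair 5, with 13 higher in the former and 14 lower in the latter. The endothelial genes stayed within 0.11 of 0 in the median of every pair. Oligodendrocyte genes were lower in pairs 1, 3, 4 and 5 and higher in pair 2 in the median (0.65), and the erythroid genes were lower in pairs 1, 2 and 3 and higher in pairs 4 and 5. The medians of all these lists stand side by side in the plot of list medians by pair, and their part in the values of the microglia and leukocyte genes was not tested. In bulk RNA, fewer cells of a type and less RNA per cell cannot be told apart.
Pair 1 also had the fewest counts. After the authors' batch correction its libraries summed to 22993426 and 22371766 counts, and the other 8 to between 68813558 and 126686149. The C1q values of pair 1 rested on 10 to 44 adjusted counts, whereas those of the other pairs rested on at least 42. The correction set the mean of each pair nearly equal, with an SD over pairs of 0.0035 log2 units in the median gene, so a high value in 1 library of a pair comes with a low value in the other. For the 8 genes that SD lay between 0.0110 for Cd68 and 0.201 for Ptprc. Which library of a pair stood apart before the correction cannot be told from these values.

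**Figure D3:**
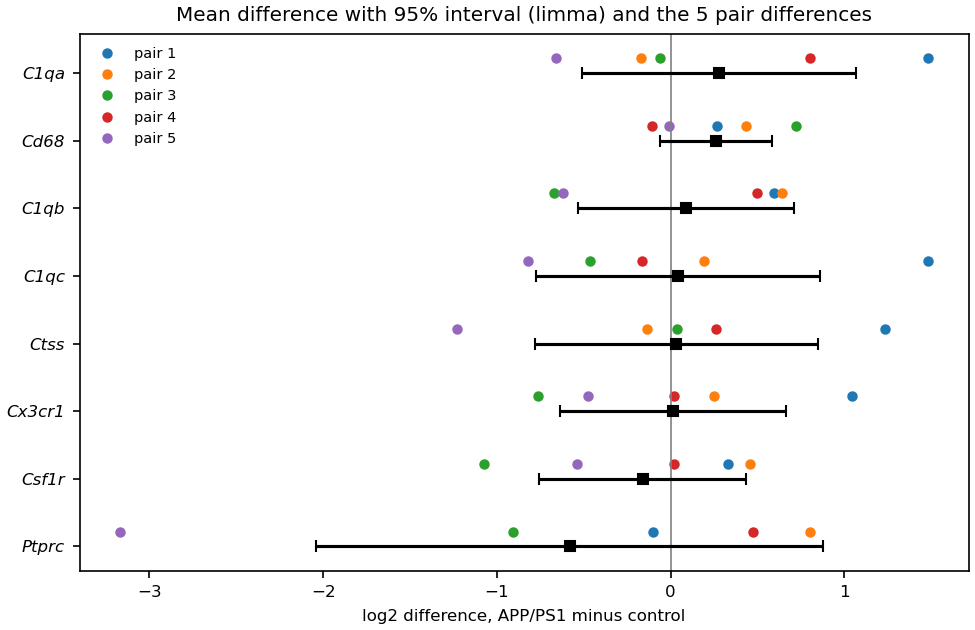
Differences in log2 units (APP/PS1 minus control), with black squares for the mean and its 95% interval by limma and colored points for the 5 pairs. Every interval includes 0, and pair 5 (purple) lies at or below 0 for all 8 genes, at −3.17 for Ptprc.

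**Figure D4:**
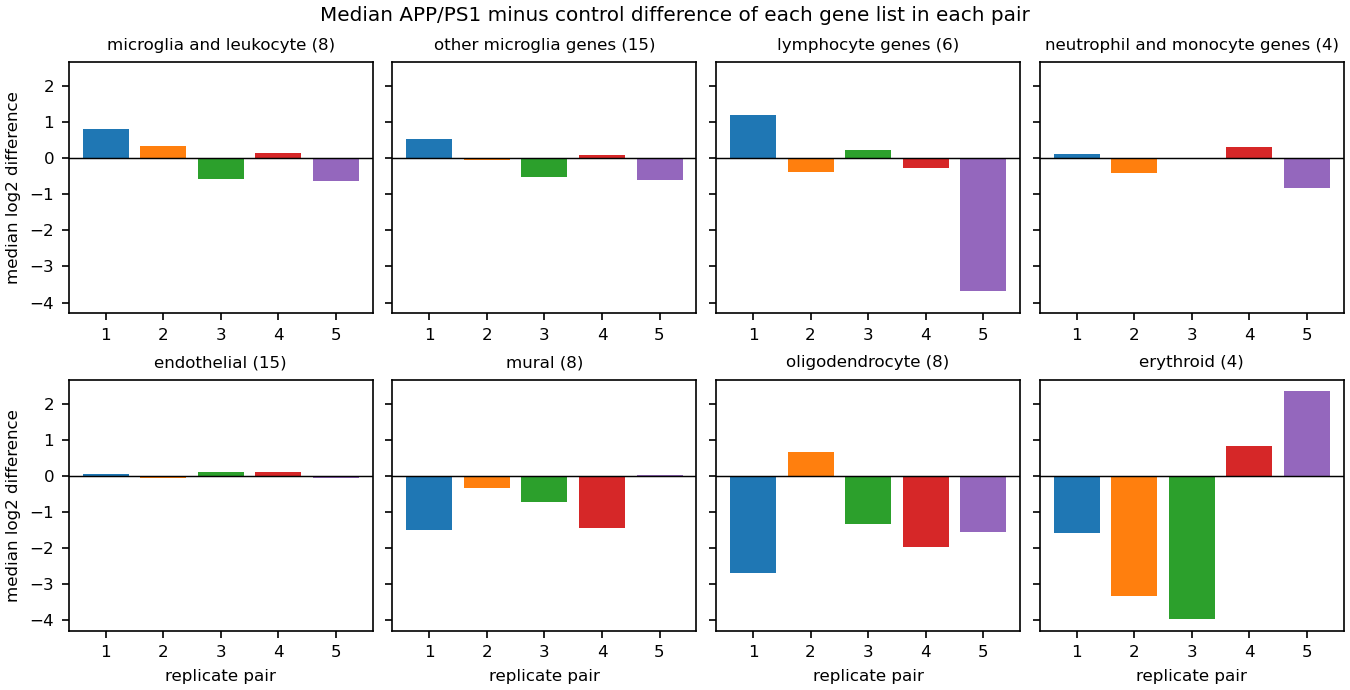
Bars give the median log2 difference (APP/PS1 minus control) of each gene list in each of the 5 pairs, with the number of genes in parentheses. The microglia and leukocyte genes lie at 0.82 in pair 1 and −0.64 in pair 5, while the endothelial genes stay near 0 in every pair.

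Other genes with a similar pattern were sought among 12190 genes with a mean of at least 1 log2 CPM, by the root mean square distance between their 5 pair differences and the mean differences of the 8 genes. The nearest were Prc1 (distance 0.223 log2 units), Csf2rb2 (0.244), Neurl3 (0.257), Tmem131l (0.263) and Sept1 (0.265). This is a ranking over 5 pairs with no test. Csf2rb2 encodes a receptor subunit of the interleukin-3 family, and its differences ran from 0.35 in pair 1 to −0.87 in pair 5.

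The genes of the wider complement cascade were tested as a further list, since C1q is its first step. Of 23 listed, 16 were tested, 0 were called. The mean in APP/PS1 was higher for 5 and lower for 11, and the list's median was −0.13 on the log2 scale. At an unadjusted p under 0.05 there were 4, all lower (5.91% of all genes were lower at that p), and those described here are Lrp1, Cfb and C1s1.
Cfb, factor B of the alternative pathway, was lower in all 5 pairs with a log2 fold change of −0.39 (adjusted p = 0.573 by limma). C1s1, which encodes the protease that C1q activates through C1r, and Lrp1, a receptor that takes up C1q-coated material, were each lower in 4 of 5 pairs, with −0.59 and −0.55. The exceptions were pair 2 for C1s1 and pair 5 for Lrp1, and both were lowest in pair 1, at −1.22 and −1.18, and next in pair 4, at −1.02 and −0.72. The mural, astrocyte and oligodendrocyte medians given above were also well below 0 in these pairs, and their part in the C1s1 and Lrp1 values was not tested. Cd93, an endothelial surface protein once held to be a C1q receptor, was the highest of the list at 9.79 log2 CPM in control libraries and had a log2 fold change of 0.07.

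The partners and signaling genes of Tyrobp, an adaptor that couples microglial receptors to Syk, gave 7 tested genes of 17, of which 0 were called, 2 were higher and 5 lower. Plcg2, a phospholipase of that pathway, averaged 6.08 ± 0.14 log2 CPM (SD, n = 5) over the control and 6.15 ± 0.14 (SD, n = 5) over the APP/PS1 libraries, and Inpp5d, an inositol phosphatase that restrains it, at 5.77 ± 0.05 and 5.74 ± 0.05. Their differences between the groups, 0.07 and −0.02, were smaller than the spread between libraries. Syk had a log2 fold change of −0.48, with differences of 1.27 in pair 1 and −3.14 in pair 5.
Of 20 genes that microglia express more strongly around plaques, 14 were tested and 0 called, with 2 higher and 12 lower (48.2% and 51.8% of all genes). Those not among the analyzed rows include Cst7, Clec7a, Itgax and Gpnmb, which define that state. The 14 had a median of 32.8 CPM per kb in control libraries, compared with 0.926 for the 8 genes. B2m and Apoe were the highest, at 807 and 305. The counts of this list therefore do not describe microglia alone. Spp1, which encodes osteopontin, was lower in all 5 pairs with a log2 fold change of −0.59 (adjusted p = 0.537 by limma), and Axl, a receptor kinase, in 4 of 5 with −0.75 (adjusted p = 0.622 by limma). Both are also expressed by other cells of the vessel wall. Of the 11 genes of border macrophages, 2 were tested, Stab1 and Maf, while Mrc1, Cd163 and Lyve1 were among the 9 that were not analyzed.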

How the data were processed

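The 9 genes and the other gene lists were chosen with earlier results of these data known. The paper's methods say that the authors aligned reads to mm10 with STAR, counted them with HTSeq-count, filtered low counts with filterByExpr, took log CPM with edgeR and corrected for batch with ComBat. Tool versions are not given in the sources used here. The authors deposited log2 CPM of 14106 genes, and the 10 files per library equaled the columns of the table. The values could be turned back into whole adjusted counts (100% of them in every library, within 0.05, at a mean prior count of 3). No counting interval is given, because counts after a batch correction are not reads. The 8 genes all passed the minimum of 10 adjusted counts used as an alternative.

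Symbols, positions and exon lengths came from GENCODE M21 (GRCm38), in which all 14106 genes were found. R 4.3.3 and limma 3.58.1 (lmFit and eBayes) were run on all genes with terms for genotype and the 5 pairs. Benjamini-Hochberg adjustment covered all 14106 genes, at a threshold of 0.05. The pairing is that of the replicate numbers in the labels. The labels name 4 batches, with replicates 4 and 5 in 1 batch, whereas the mean of each of the 5 pairs had been set nearly equal. Log2 fold changes are on the scale with the prior count, which understates changes of weak genes. Sign-flip tests were exact (scipy 1.17.1). The fit was tested on simulated data. From each list the 3 genes with the smallest p and the 2 with the highest level were eligible to be named. B cell genes, P2ry12, Tmem119, Ikzf1 and C1s1 were named after their values were seen. Some genes that the rule would name are not reported here. Alternatives were a model without the pairs, the 4 batches, eBayes with a trend, limma-voom, 2 other scalings, a prior count of 0.5, a minimum of 10 adjusted counts, a threshold of 0.1 and each replicate left out. Leaving out pairs 1 and 5 together was added after the data were seen.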

Additional observations from a re-analysis of the deposited data

Results flagged for a closer look

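A search for single libraries far from the other 4 of their group covered the 8 genes and the named genes of the immune, complement and lysosomal lists, in 84 groups of 5 libraries. A library was listed when it lay apart from its nearest neighbor by more than 0.71 of the group's range, and 11 did so, where chance gives about 4.2, or 1 in 20 groups. The search first covered the 16 groups of the 8 microglia and leukocyte genes, found 0, and was widened after that was seen. The 2 libraries of a pair mirror each other after the batch correction, so flags in a pair are not independent.

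Of the 11, 5 were in APP/PS1 replicate 5, each the lowest of its group. The gap as a share of the range was 0.837 for Ighm, 0.816 for Ms4a1, 0.798 for Cd79b, 0.756 for Cd79a and 0.746 for Syk. Ighm was at −2.17 log2 CPM in that library, 3.22 below the next. Cd79a was also highest in control replicate 5 (0.733), and Ms4a1 was lowest in control replicate 1 (0.716), where it had 0 adjusted counts. Maf was lowest in APP/PS1 replicate 1 (0.772). In pair 2, Stab1 was highest in the control library (0.765) and lowest in the APP/PS1 library (0.806), and Cfb was lowest in the APP/PS1 library (0.761).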

How the results depend on the processing

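None of the 8 genes passed an adjusted p under 0.05 by limma in any alternative, the smallest being 0.166 for Cd68 without the pairs in the model. Over all genes the count moved from 0 (1133 at an unadjusted p under 0.05) to 648 with no replicate block, since values already centered by pair were then set against more residual degrees of freedom, to 1 with the 4 batches of the labels, and to between 0 and 5 with each replicate left out, the 5 without replicate 2 and 1 without replicate 5. It was 0 in the other alternatives, and the count of the 8 genes called was 0 in all, also with each replicate left out.
The block changed no call among the 8 genes. Without the block, limma called Ctsc, Sall1, Spp1 and Ltf, at adjusted p values of 0.00959, 0.0208, 0.0318 and 0.0192. It called none of Il34, C1s1, Lrp1, Cfb and Axl. Calls in that model for the other genes named here are not reported.
With each replicate left out, the median log2 fold change of the 8 genes lay between −0.25 and 0.26. Ptprc lay between −0.93 and 0.07, Csf1r between −0.32 and 0.07, Cd68 between 0.15 and 0.35, C1qa between −0.02 and 0.51, C1qb between −0.05 and 0.28, C1qc between −0.32 and 0.26, Cx3cr1 between −0.24 and 0.21 and Ctss between −0.27 and 0.35. The sign of C1qa, C1qb, C1qc, Cx3cr1 and Ctss turned without replicate 1 (−0.0212, −0.0374, −0.32, −0.24 and −0.27), that of C1qb and Cx3cr1 without replicate 2 (−0.0484 and −0.0439), that of Csf1r without replicate 3 (0.0675), that of C1qb and Ctss without replicate 4 (−0.0122 and −0.0234) and that of Ptprc without replicate 5 (0.0664). By limma-voom the sign turned for C1qc (−0.17), Cx3cr1 (−0.11) and Ctss (−0.19), with library size alone for Cx3cr1 (−0.0220) and Ctss (−0.0029), and without pairs 1 and 5 for Ptprc (0.12), C1qc (−0.15) and Cx3cr1 (−0.17). In all, 93 of 112 values of the 8 genes kept their sign and their side of the threshold and 19 turned. The 112 include the model without the pairs, the batches of the labels, eBayes with a trend and the minimum of adjusted counts. These settings leave every log2 fold change as in the main model, so no sign could turn there and only the p values could move. The share of values that kept their sign therefore overstates how stable the signs were. The cause of the turned signs was not tested.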

Other observations

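B cell genes were lower in the APP/PS1 library of pair 5. Ighm, which encodes the heavy chain of IgM, was at 0.41, 1.76, 1.04, 1.62 and 4.87 log2 CPM in control replicates 1 to 5, and at 1.68, 1.05, 1.48, 1.15 and −2.17 in APP/PS1 replicates 1 to 5. Replicate 5 held both the highest and the lowest library, with a difference of −7.05 log2 units. Those extremes are not separate observations either, since both libraries of a pair mirror each other after the batch correction. The antigen receptor genes Cd79a and Cd79b differed by −2.49 and −4.61 in that pair, and Ms4a1, the gene of CD20, by −3.53. Ms4a1 differed by 3.67 and Cd79b by 2.89 in pair 1, where Ms4a1 had 0 adjusted counts in the control library. Cd3e, of T cells, differed by 0.01 in pair 5, by −0.56 in pair 1, by −2.54 in pair 2 and by 2.00 in pair 3. None passed the test over the 5 pairs, and the log2 fold change of Ighm was −1.30 (standard error 1.23, adjusted p = 0.85 by limma).

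Neutrophil and monocyte genes were scarce, with 4 of 15 tested. Ltf, the gene of lactoferrin, was lower in all 5 pairs at a log2 fold change of −0.47 (adjusted p = 0.535 by limma). Sall1, a transcription factor of microglia that other brain cells also express, was lower in all 5 pairs as well, with means of 0.08 ± 0.21 log2 CPM (SD, n = 5) for the controls and −0.72 ± 0.28 (SD, n = 5) for APP/PS1 and a log2 fold change of −0.80 (adjusted p = 0.511 by limma).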
